A study of Mus musculus with 9 samples.

Results

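The 7 Krüppel-like transcription factor genes described here are Klf2, Klf4, Klf6, Klf7, Klf9, Klf10 and Klf13, of 17 Klf genes among the 52636 genes of the count table. The set was chosen by name with earlier results of these data known, and Klf2, Klf4 and Klf6 were selected on how widely their CPM (counts scaled to library size) spread between the 9 libraries, so the levels and spread are given as a description without a test. RNA was sequenced from cells of the nucleus accumbens, taken from C57BL/6 males and sorted by a fluorescent antibody against ChAT, the acetylcholine-synthesizing enzyme of cholinergic interneurons. The groups were SUS, RES and drug-naive (titled WT), each of 3 libraries, and 2 to 3 mice were pooled per condition. Mice of SUS and RES had self-administered cocaine, first at a fixed ratio with up to 40 infusions and afterwards for 10 days in 23 h progressive ratio sessions at 1.2 mg/kg per infusion, and were sampled on day 3 following the last of these. The phenotype field calls the SUS libraries resilient and the RES libraries susceptible, against their titles, so the title names are used and no difference is read as either. Whether each library had a pool of its own is not stated, and the p-values below then measure only the spread between these libraries, which may be technical. Naive mice had taken no cocaine.

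Krüppel-like factors are DNA-binding proteins with C2H2 zinc fingers at the carboxyl end that recognise GC-rich and CACCC sequences, and the rest of each protein recruits coactivators or corepressors. KLF2 and KLF4 are known from endothelium, where flow induces them through the ERK5 and MEF2 pathway, and from monocytes and macrophages, and KLF4 is also one of the reprogramming factors of pluripotency. KLF6 and the TGF-beta-inducible KLF10 are induced quickly by growth factors and stress, and KLF2, KLF4 and KLF6 are counted among immediate early genes. KLF9 is a target of thyroid hormone and glucocorticoid receptors in neurons and oligodendrocytes, KLF13 is its close relative, and KLF7 is a neuronal factor needed for axon growth.

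The promoters of the 3 genes with the widest spread are shown because these genes varied together over the libraries. They are RefSeq sequences of build GRCm38.p6, read on the strand of the gene and ending before the first annotated base of the transcript, with capitals for matches on either strand to a GC box (GGGCGG), the short cAMP response element motif (TGACG), the promoter box CCAAT or the MEF2 consensus.
Klf2 (chr8:72318812-72319032, plus strand): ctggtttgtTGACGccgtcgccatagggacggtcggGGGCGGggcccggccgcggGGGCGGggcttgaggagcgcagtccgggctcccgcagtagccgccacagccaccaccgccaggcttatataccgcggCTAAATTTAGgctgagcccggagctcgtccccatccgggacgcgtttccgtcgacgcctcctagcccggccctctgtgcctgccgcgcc
Klf4 (chr4:55532476-55532725, minus strand): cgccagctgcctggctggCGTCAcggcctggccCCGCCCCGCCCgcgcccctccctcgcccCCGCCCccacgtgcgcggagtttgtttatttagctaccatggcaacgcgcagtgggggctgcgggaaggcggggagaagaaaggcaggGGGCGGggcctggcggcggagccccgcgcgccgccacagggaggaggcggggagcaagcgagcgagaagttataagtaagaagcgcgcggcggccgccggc
Klf6 (chr13:5861239-5861481, plus strand): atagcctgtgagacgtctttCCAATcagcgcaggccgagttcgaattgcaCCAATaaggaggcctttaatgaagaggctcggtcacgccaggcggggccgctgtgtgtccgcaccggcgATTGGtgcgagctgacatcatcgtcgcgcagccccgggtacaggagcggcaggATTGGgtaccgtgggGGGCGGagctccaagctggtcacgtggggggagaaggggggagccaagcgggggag
In the Klf2 stretch of 221 bases there were 2 GC boxes, 1 short cAMP response motif and 1 MEF2 match. The Klf4 stretch of 250 bases held 4 GC boxes, neighbouring ones partly overlapping, and 1 short cAMP response motif, and the Klf6 stretch of 243 bases held 1 GC box and 4 CCAAT boxes. Other motifs were searched over 250 bases and are not capitalised. The full cAMP response element (TGACGTCA), AP-1 site (TGANTCA), CArG box and TATA box (TATAAA) had 0 matches in these 3 genes. The E box (CACGTG) had 1 match in Klf4 and 1 in Klf6, and CACCC 1 in Klf2. Of 32841 RefSeq promoters read over 250 bases before the start, 32.7% held a GC box, 17.8% the short cAMP response motif, 33.9% a CCAAT box and 2.92% a MEF2 match. Promoters of 6 of the 7 genes were in the table, and Klf10 was not. These are letter matches and not measured binding sites.

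Total counts ran from 4471675 to 11155730 per library, and TMM scaling factors from 0.743 to 1.58, the highest in RES replicate 3. Cholinergic markers were low despite the ChAT sort, and the median of 11 such genes lay between 0.949 and 1.89 times background in each library. Here background means counts per kb of exon over 1134 olfactory receptor genes, which stand in for genes the brain does not express. The median of 10 T cell, NK cell and neutrophil markers, which healthy brain largely lacks, lay between 1.81 and 2.42 times background, so Klf values in that range are no evidence of expression. Chat, the gene of the sorted protein, was at 1.27, 7.86 and 0.877 times background in SUS, 1.38, 2.498 and 1.88 in RES, and 1.64, 1.54 and 1.93 in naive, high in SUS replicate 2 alone. Microglial markers had a median of 1.98 to 48.5 times background over 18 genes. In bulk libraries fewer cells of a type and less RNA per cell cannot be told apart.

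Per kb of exon, Klf4 had the highest level of the 7 genes, at a mean of 6.06 times background over the 9 libraries, followed by Klf6 (4.51) and Klf2 (3.73). Klf13 (2.93), Klf10 (2.74), Klf9 (2.4) and Klf7 (1.97) averaged under 3 times background, a level exceeded by 5757 of 21883 protein-coding nuclear genes. The means of Klf9 and Klf7 lay within the 1.81 to 2.42 times background named above, so they are no evidence of expression. Their highest libraries were at 4.26 (Klf9) and 2.66 (Klf7). Ranges over libraries overlapped between all neighbours in this order. The lowest library was at 2.21 times background for Klf4, 1.20 for Klf6 and 0.707 for Klf2, and the highest was at 15.8, 10.8 and 8.99. Klf7 is the least certain of these levels, because 3196 of its 8131 exonic bases also lie in the opposite-strand gene model Gm26649 and the strand setting of the counting is not given in the sources used here.

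**Figure D1:**
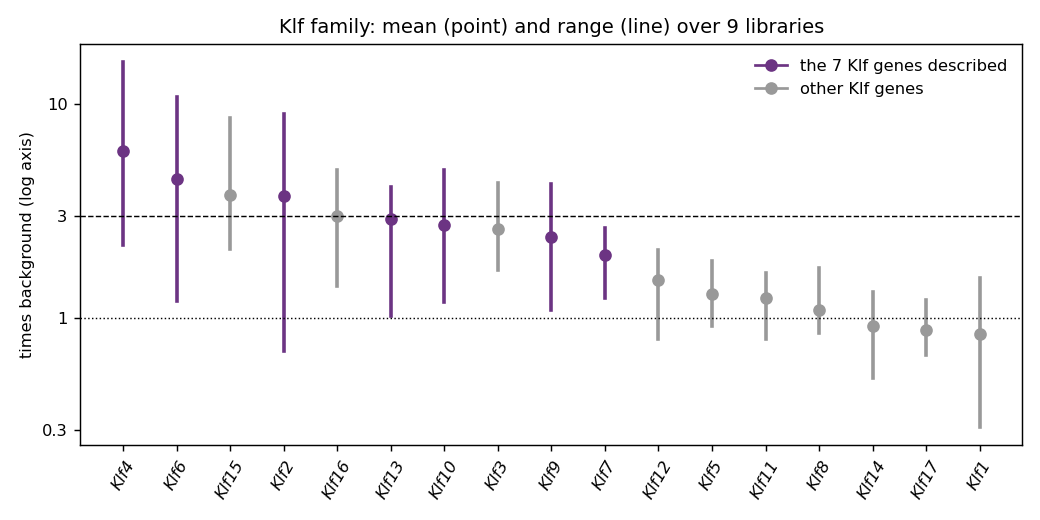
Mean (points) and range over the 9 libraries (lines) of each of the 17 Klf genes, in times background on a log axis, with dotted and dashed lines at 1 and 3 times background. Klf4, Klf6, Klf2, Klf15 and Klf16 averaged above 3 times background, while Klf7 stayed between 1.24 and 2.66.

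Klf2, Klf4 and Klf6, which were selected on their spread, had the widest spread of the set. Klf2 (ENSMUSG00000055148, chromosome 8, 72319033 to 72321656, GRCm38) had 14.1, 4.10 and 37.5 CPM in SUS replicates 1 to 3, 13.3, 3.22 and 2.99 CPM in RES libraries, and 13.5, 29.6 and 8.88 CPM in naive libraries. These rest on 15 to 310 counts per library. SUS replicate 3 and naive replicate 2 were high, and RES replicates 2 and 3 and SUS replicate 2 were low, so each group held values that overlapped those of the others. The highest value was 12.5 times the lowest, against a median ratio of 2.02 over 14443 genes tested that averaged at least 10 CPM.

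Klf4 (chromosome 4, 55527143 to 55532466) had 41.5, 18.3 and 108.5 CPM in SUS, 28.6, 11.6 and 17.6 CPM in RES libraries, and 31.6, 59.5 and 26.6 CPM in naive libraries. Klf6 (chromosome 13, 5861482 to 5870394) had 46.2, 14.3 and 107.1 CPM in SUS, 41.2, 14.2 and 12.1 CPM in RES libraries, and 24.5, 79.2 and 25.6 CPM in naive libraries. For both genes SUS replicate 3 was highest and naive replicate 2 second, SUS replicate 2 was at the level of the low RES libraries, and all pairs of groups overlapped. The ratio of highest to lowest CPM was 9.35 for Klf4 and 8.86 for Klf6, and without SUS replicate 3 it was 5.13 and 6.55.

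Klf10 (chromosome 15, 38291463 to 38300706), which was not among the genes noted for spread, showed a smaller version of the same order. It had 38.0, 10.97 and 39.8 CPM in SUS, 24.2, 9.88 and 11.4 CPM in RES libraries, and 22.3, 37.8 and 15.4 CPM in naive libraries. Its highest value was 4.03 times its lowest, and SUS replicate 1 was close to SUS replicate 3. The SD of log2 CPM over the libraries was 1.28 for Klf2, 1.11 for Klf6, 0.97 for Klf4 and 0.81 for Klf10. All 4 lay above the 95th percentile of genes of at least 10 CPM, whose median SD was 0.32.

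The other 3 genes varied less. Their highest libraries were others, SUS replicate 1 for Klf7 and Klf13 and RES replicate 2 for Klf9. Their lowest was RES replicate 3, as for Klf2 and Klf6, and this library had the highest TMM factor (1.58). Klf9 (chromosome 19, 23141226 to 23168134) had 21.6, 27.3 and 23.7 CPM in SUS, 20.2, 35.2 and 12.1 CPM in RES libraries, and 13.5, 23.9 and 28.3 CPM in naive libraries, so that its highest library, RES replicate 2, was among the lowest for Klf2, Klf4, Klf6 and Klf10. Klf7 (chromosome 1, 64029447 to 64122282) had 42.1, 29.5 and 34.1 CPM in SUS, 31.0, 36.1 and 23.2 CPM in RES libraries, and 24.3, 38.1 and 30.6 CPM in naive libraries, with a ratio of highest to lowest of 1.82. Klf13 (chromosome 7, 63886351 to 63938915) had 60.4, 44.6 and 52.6 CPM in SUS, 44.3, 42.7 and 17.8 CPM in RES libraries, and 37.6, 54.1 and 43.2 CPM in naive libraries. The ratio of highest to lowest was 3.39 and, without RES replicate 3, 1.61. The SD of log2 CPM was 0.51 for Klf13, 0.49 for Klf9 and 0.28 for Klf7, the last below the median of all genes of that level.

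**Figure D2:**
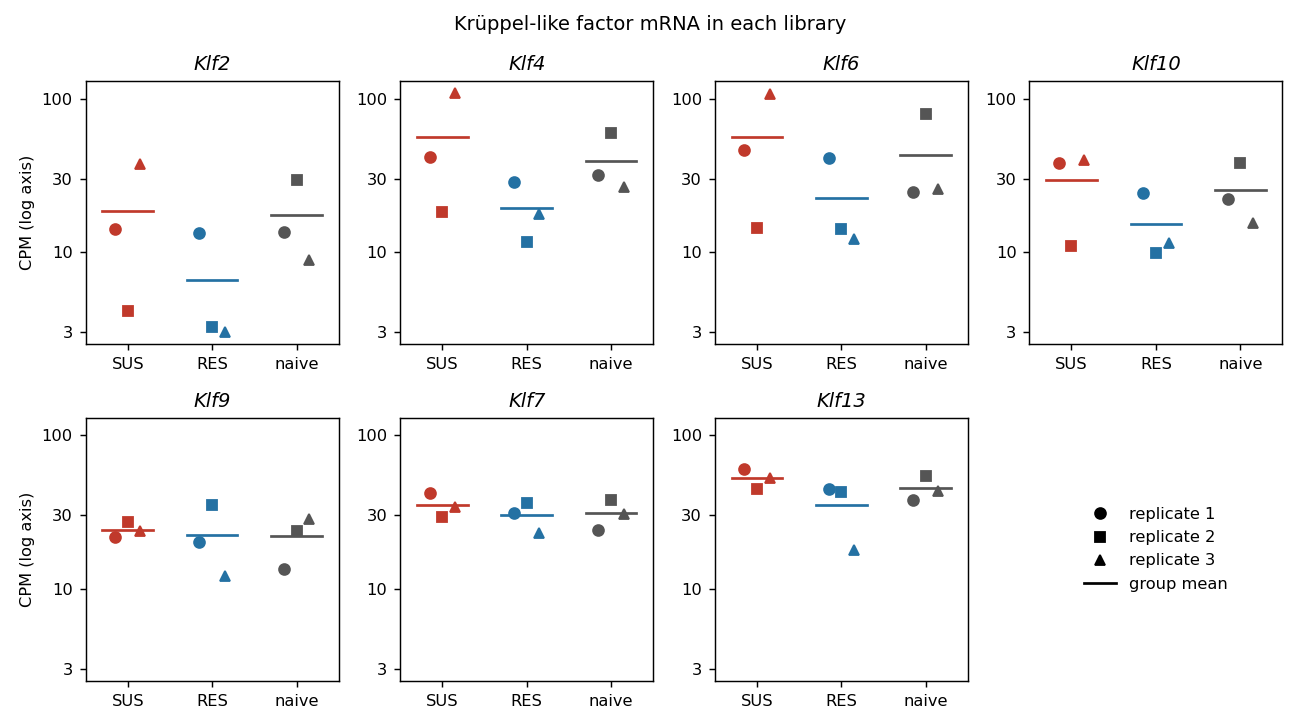
CPM scaled by TMM (log axis) of the 7 Klf genes in SUS, RES and naive libraries, with a symbol for each replicate and a line at each group mean. SUS replicate 3 (red triangles) was the highest library for Klf2 (37.5 CPM), Klf4 (108.5 CPM) and Klf6 (107.1 CPM), and the SUS values of Klf13 (44.6 to 60.4 CPM) lay just above the RES values (17.8 to 44.3 CPM).

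Comparing SUS with RES asks how the groups with the same drug schedule differed. All 7 genes had a higher mean in SUS, and none passed the test. Klf4 averaged 56.1 ± 46.8 CPM in SUS and 19.2 ± 8.61 CPM in RES (SD, n = 3 each), a log2 fold change of 1.54 (SE 0.53), and its edgeR quasi-likelihood adjusted p over all genes was 0.870. Klf2 averaged 18.6 ± 17.1 CPM in SUS and 6.51 ± 5.90 CPM in RES (log2 fold change 1.51, SE 0.68), Klf6 55.9 ± 47.2 CPM in SUS and 22.5 ± 16.2 CPM in RES (1.31, SE 0.64), and Klf10 29.6 ± 16.1 CPM in SUS and 15.2 ± 7.85 CPM in RES (0.96, SE 0.46). These 3 genes also had an edgeR adjusted p of 0.870. The SD of Klf2 and Klf6 within SUS was about as large as the mean.

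Klf13 was the only one of the 7 whose SUS and RES libraries did not overlap, at 52.5 ± 7.93 CPM in SUS and 35.0 ± 14.9 CPM in RES (SD, n = 3 each; log2 fold change 0.59, SE 0.33, edgeR adjusted p = 0.886). Of all 39210 genes tested, 3.41% were higher in SUS without overlap, and 4.22% lower, so 1 gene of 7 is a small count to set against that background. Without RES replicate 3 the log2 fold change of Klf13 was 0.27. Klf7 (0.23, SE 0.27) and Klf9 (0.12, SE 0.35) had small differences, and that of Klf9 turned to -0.19 without RES replicate 3. By edgeR 0 genes were called between SUS and RES (0% of those tested), with 2227 at an unadjusted p under 0.05, and DESeq2 called 0 with 1885. The edgeR count at an unadjusted p under 0.05 was 4712 when SUS replicate 2 was left out, 1171 when SUS replicate 3 was, and 1127 when RES replicate 3 was.

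Without SUS replicate 3 the log2 fold change of SUS against RES was 0.49 for Klf2, 0.63 for Klf4 and 0.43 for Klf6. Without SUS replicate 2 it was 1.98, 1.95 and 1.77, and without RES replicate 1 it was 2.55 for Klf2 and 2.07 for Klf6. No gene was called in any of these fits. In SUS replicate 3 the microglial genes Cx3cr1 and Tmem119 were at 699.9 and 192 CPM and the immediate early gene Fos at 229 CPM, the highest of the 9 libraries for each. In SUS replicate 2 they were at 26.6, 7.76 and 27.7 CPM. All 18 microglial genes had positive fold changes in SUS against RES, with a median of 2.09, against 0.01 over all genes tested. Other marker lists also shifted upward, with 12 of 12 oligodendrocyte genes positive (median 1.13). So did 11 of 13 border and blood macrophage genes (0.76) and 14 of 15 endothelial genes (0.44). Medians were negative for astrocyte (-0.26), medium spiny neuron (-0.11) and cholinergic (-0.11) markers. The part of these cell types and of Fos in the Klf values was not tested.

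RES against naive asks how 1 of the cocaine groups differed from mice without the drug. Means of 6 of the 7 genes gave negative fold changes in RES, and no gene passed. Klf2 averaged 6.51 ± 5.90 CPM in RES and 17.3 ± 10.9 CPM in naive (SD, n = 3 each; log2 fold change -1.36, SE 0.70), and Klf4 19.2 ± 8.61 CPM in RES and 39.2 ± 17.8 CPM in naive (-1.01, SE 0.53). Klf6 averaged 22.5 ± 16.2 CPM in RES and 43.1 ± 31.2 CPM in naive (-0.92, SE 0.64), and Klf10 15.2 ± 7.85 CPM in RES and 25.1 ± 11.5 CPM in naive (-0.70, SE 0.46), both with an edgeR adjusted p of 1.00. Klf13 (-0.36, SE 0.33), Klf7 (-0.04, SE 0.27) and Klf9 (0.03, SE 0.35) differed by about their error or less. Without naive replicate 2, the naive library with the most Klf2, Klf4 and Klf6, the log2 fold change was -0.77 for Klf2, -0.58 for Klf4, -0.15 for Klf6, -0.30 for Klf10 and -0.21 for Klf13. Without RES replicate 1, the RES library with the most Klf2, Klf4, Klf6 and Klf10, it was -2.40 for Klf2, -1.68 for Klf6, -1.19 for Klf10 and -0.57 for Klf13, and without RES replicate 3 it was -0.61 for Klf6 and -0.04 for Klf13. No gene was called in any of these fits. Overlap of RES with naive was found for all 7 genes, where 3.31% of all genes tested were higher and 2.82% lower without overlap, and 0% were called (0 by edgeR, with 361 at an unadjusted p under 0.05, and 0 by DESeq2, with 264). The edgeR count of 361 became 825 when RES replicate 1 was left out, 716 when SUS replicate 3 was, and 547 when SUS replicate 2 was.

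SUS against naive asks the same of the other cocaine group. All 7 means gave positive fold changes, from 0.14 (SE 0.35) for Klf9 to 0.53 (SE 0.51) for Klf4, each about as large as its standard error or smaller, and 0% of genes were called. The groups overlapped for all 7 genes, where 3.85% of all genes tested were higher and 4.15% lower without overlap. Klf4 averaged 56.1 ± 46.8 CPM in SUS and 39.2 ± 17.8 CPM in naive, and Klf6 55.9 ± 47.2 CPM in SUS and 43.1 ± 31.2 CPM in naive (SD, n = 3 each; log2 fold change 0.39, SE 0.63). Klf2 (0.15, SE 0.65), Klf10 (0.26, SE 0.45), Klf13 (0.23, SE 0.33) and Klf7 (0.19, SE 0.27) had smaller fold changes than Klf4 and Klf6. Without SUS replicate 3 the differences of Klf2, Klf4 and Klf6 turned to -0.86, -0.38 and -0.49. EdgeR called 0 of 39210 genes with 1225 at an unadjusted p under 0.05, and DESeq2 called 0 with 931. The edgeR count of 1225 became 3576 when SUS replicate 2 was left out, 1965 when SUS replicate 1 was, and 733 when naive replicate 3 was.

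All 6 cocaine libraries against the 3 naive libraries gave log2 fold changes between -0.39 (SE 0.65) for Klf2 and 0.09 (SE 0.30) for Klf9. These differences are smaller than their standard errors for all 7 genes. Klf4 averaged 37.7 ± 36.2 CPM in cocaine (SD, n = 6) and 39.2 ± 17.8 CPM in naive (n = 3). Cocaine and naive libraries overlapped for all 7 genes, where 0.617% of all genes tested were higher and 0.553% lower without overlap. Called genes made up 0% again, with 541 at an unadjusted p under 0.05 by edgeR and 0 calls and 484 such genes by DESeq2, and the edgeR count was 860 with RES replicate 3 left out. The comparisons share libraries, since naive serves 3 of them and RES and SUS each serve 3.

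**Figure D3:**
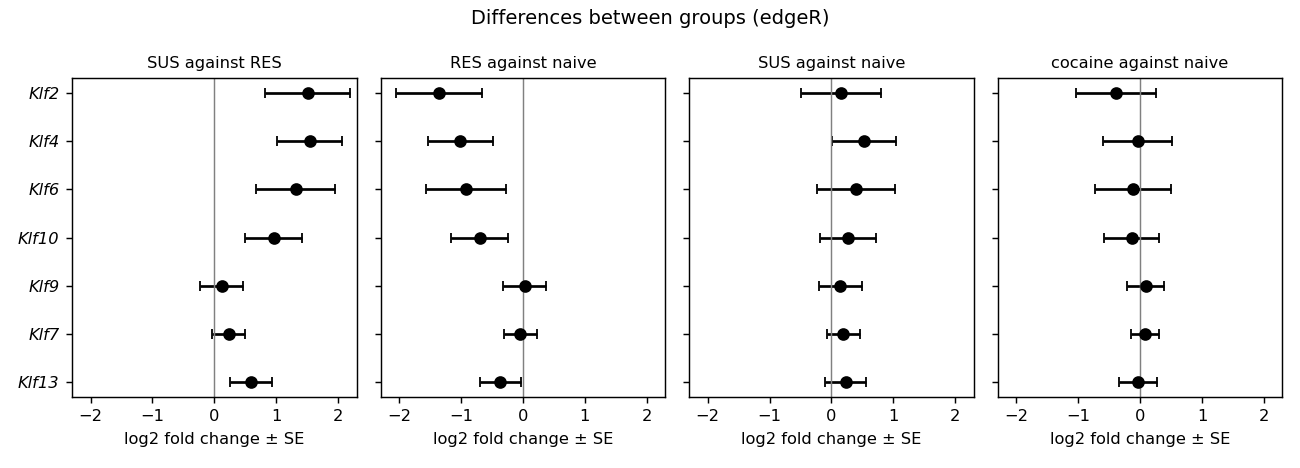
Log2 fold change with its standard error from edgeR for each Klf gene in the 4 comparisons, first-named group over second. Differences of 0.96 to 1.54 were found for Klf10, Klf6, Klf2 and Klf4 in SUS against RES, and none passed adjustment over all genes.

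The share of the variation within the groups is given as a description. With so few libraries per group, a large share can arise both where groups are alike and where they differ by less than the spread. It is therefore no evidence of likeness between groups. The share to be found without any group difference was not computed. Of the sum of squares of log2 CPM over the 9 libraries, 64.1% for Klf4, 64.5% for Klf13, 68.7% for Klf2, 75.3% for Klf10, 78.8% for Klf6, 85.4% for Klf7 and 95.2% for Klf9 was within SUS, RES and naive.

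Klf2, Klf4, Klf6 and Klf10 varied together over the libraries. All 6 pairs among them had a Pearson r between 0.916 (Klf4 with Klf10) and 0.969 (Klf2 with Klf6), with adjusted p between 0.00131 and 0.00312 (two-sided exact permutation over the orders of 9 libraries, adjusted over 119 relations), and a Spearman rho between 0.917 and 0.983 (adjusted exact permutation p between 0.00197 and 0.00918). With the group means removed r was 0.890 to 0.980, with exact permutation p of 0.00926 to 0.0231 and an adjusted p no lower than 0.100. Only 216 orders exist within groups, and they allow no p below 0.00463. Without the 2 libraries farthest from the median r was 0.911 to 0.958. Klf7 and Klf13 formed the only other pair past adjustment by Pearson r (0.824, exact permutation adjusted p = 0.00303, rho 0.783 with adjusted p = 0.0854), and that r was 0.129 when CPM were computed on total counts without TMM. Klf9 had an r of -0.110 to 0.106 with Klf2, Klf4, Klf6 and Klf10. Libraries share their depth and cell mixture, and these members were chosen with earlier results known. Klf2, Klf4 and Klf6 were also selected on their spread between the same libraries, so the p-values of these pairs are a description. Of 12920 named genes, 458 (with Klf4) to 775 (with Klf10) had r of at least 0.9, so such values are not particular to Klf pairs.

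Immediate early genes followed the same order. Their list was added to the correlations after values had been seen, so the p-values given for it are a description. The mean log2 CPM of 27 immediate early genes other than Klf, a list that includes Fos, Jun, Egr1 and Atf3, was 5.77, 4.35 and 6.45 in SUS, 5.30, 4.17 and 3.61 in RES, and 5.13, 6.03 and 4.55 in naive. Over 9 libraries its r was 0.968 with Klf6 (exact permutation adjusted p = 0.00131, rho 0.983 with adjusted p = 0.00197), 0.964 with Klf2, 0.955 with Klf10 and 0.923 with Klf4. The rho of these 3 genes was 0.933 to 0.983, and the exact permutation adjusted p was no higher than 0.00303 for r and 0.00637 for rho. Without RES replicate 3 and SUS replicate 3, the libraries farthest from the median, these were 0.953, 0.937, 0.988 and 0.937. For Klf13 r was 0.748 (exact permutation adjusted p = 0.0332, rho 0.767 with adjusted p = 0.102) and 0.654 without these libraries, for Klf7 it was 0.580 and for Klf9 0.106. On total counts without TMM the r of Klf13 was 0.530 (exact permutation adjusted p = 0.427). Fos had 122.5, 27.7 and 229 CPM in SUS, 70.8, 26.0 and 17.6 CPM in RES libraries, and 63.5, 144.5 and 35.7 CPM in naive libraries.

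**Figure D4:**
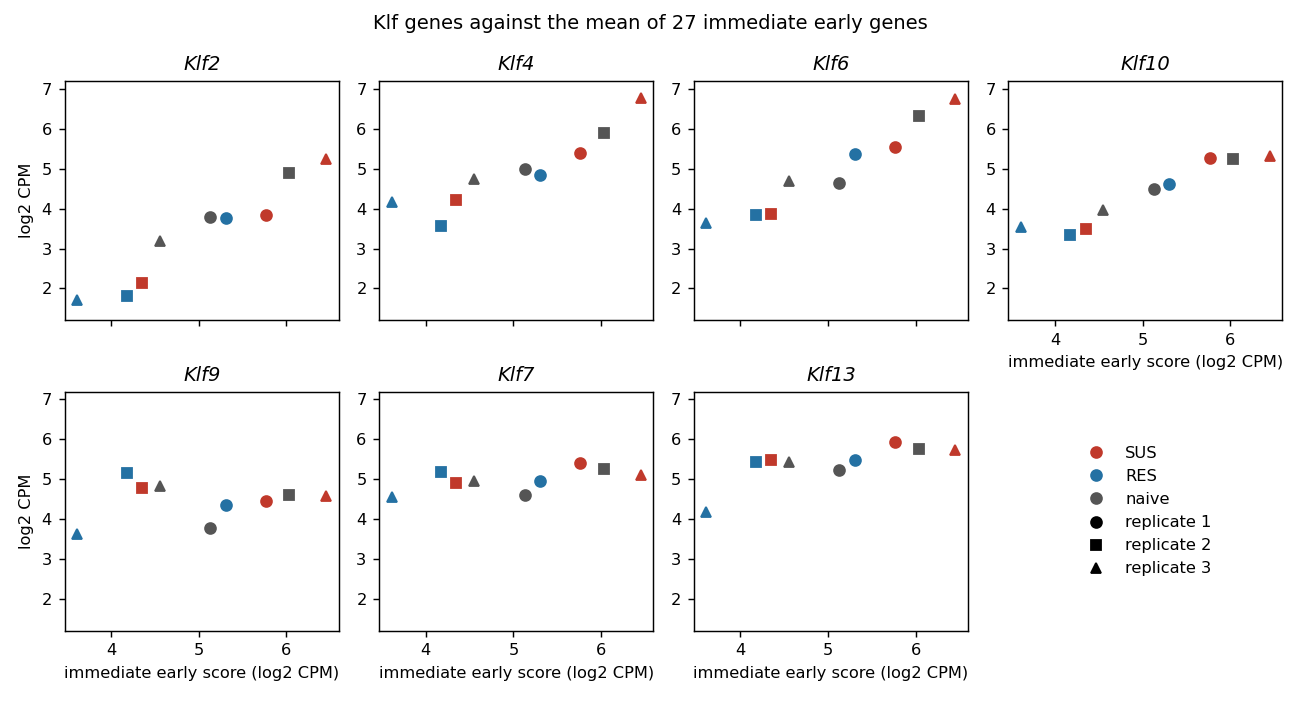
Log2 CPM of each Klf gene (vertical axis) against the mean log2 CPM of 27 immediate early genes (horizontal axis), with 1 point per library, colours for groups and symbols for replicates. Klf2, Klf4, Klf6 and Klf10 were higher where the score was higher (r of 0.923 to 0.968), while Klf9 had r = 0.106.

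Microglial markers stood apart in the same libraries. The score of 18 microglial genes fell into separate sets, with 4 libraries at or below 4.31 and 5 at or above 6.57 log2 CPM, so no correlation over all libraries is given, and neither set is large enough for its own. Cx3cr1, the fractalkine receptor of microglia, had 548, 26.6 and 699.9 CPM in SUS, 225, 11.2 and 19.0 CPM in RES libraries, and 229, 438 and 25.8 CPM in naive libraries. Klf10 lay between 22.3 and 39.8 CPM in the 5 libraries with more Cx3cr1 and between 9.88 and 15.4 CPM in the other 4, and Klf2 between 13.3 and 37.5 CPM and between 2.99 and 8.88 CPM. Klf4 was at 28.6 CPM or more in those 5 libraries and at 26.6 CPM or less in the other 4. Klf6, Klf7, Klf9 and Klf13 overlapped between these libraries, Klf6 with a lowest value of 24.5 CPM in the 5 and a highest of 25.6 CPM in the 4. The share of all genes tested that separate in this way was not counted. Separation is therefore not read as particular to Klf genes. Summed over the list, microglial CPM were 372 to 7246 in SUS, 199 to 2342 in RES and 425 to 4270 in naive, and no listed gene was at 0. The part of microglial RNA in the Klf differences was not tested.

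Border and blood macrophage markers (13 genes) had r of 0.889 to 0.938 with Klf2, Klf4, Klf6 and Klf10 (exact permutation adjusted p between 0.00256 and 0.0122, rho 0.90 to 0.967), and only with Klf4 was the adjusted p under 0.05 also without TMM and also without RES replicates 2 and 3, the libraries farthest from the median. Endothelial markers (15 genes) had r of 0.772 with Klf2, 0.849 with Klf4 and 0.774 with Klf6 (exact permutation adjusted p = 0.0197, 0.0197 and 0.0218, rho 0.667 to 0.717 with adjusted p of 0.107 to 0.130), and these were 0.631, 0.433 and 0.570 without RES replicate 2 and SUS replicate 3. The relation with the endothelial list thus rests on those libraries. It also depends on the scaling, since r without TMM was 0.259 with Klf2, 0.555 with Klf4 and 0.277 with Klf6 (exact permutation adjusted p = 0.704, 0.417 and 0.691). Cldn5, the claudin of brain endothelium, was at 0.842 to 4.08 times background. Klf9 followed astrocyte markers (13 genes) with r = 0.814 (exact permutation adjusted p = 0.0369, rho 0.750 with adjusted p = 0.107), and 0.682 without naive replicate 3 and RES replicate 2. Without TMM this r was 0.750 (exact permutation adjusted p = 0.0898). A list of 14 glucocorticoid-induced genes, of which 13 entered, had r of 0.861 to 0.954 with Klf2, Klf4, Klf6 and Klf10 (exact permutation adjusted p between 0.00187 and 0.0166, rho 0.917 to 0.967) and 0.213 with Klf9. For Klf13 it was 0.807 (exact permutation adjusted p = 0.0172, rho 0.717 with adjusted p = 0.107), and 0.683 without RES replicate 3 and SUS replicate 3. Without TMM the r of Klf13 with this list was 0.496 (exact permutation adjusted p = 0.476). The glucocorticoid list too was added after values had been seen, so its p-values are a description. Mural markers had r of 0.879 with Klf4 and 0.790 with Klf6, and oligodendrocyte markers 0.801 with Klf10 (exact permutation adjusted p = 0.0128, 0.0369 and 0.0327, rho 0.667 to 0.733 with adjusted p of 0.107 to 0.130). Without naive replicate 2 and SUS replicate 3 the mural r was 0.537 with Klf4 and 0.313 with Klf6, so it rests on those libraries, and without TMM it was 0.176 and -0.149. The oligodendrocyte r was 0.787 without RES replicate 3 and SUS replicate 1 (exact permutation adjusted p = 0.171) and 0.683 without TMM. With TMM scaling no Klf gene had an r past adjustment with oligodendrocyte precursor, medium spiny neuron, cholinergic, red blood cell or T cell, NK cell and neutrophil markers. On total counts without TMM, medium spiny neuron markers had r of -0.951 with Klf10 and -0.805 with Klf4 (exact permutation adjusted p = 0.00323 and 0.0391), against -0.466 and -0.517 with TMM (adjusted p = 0.319 and 0.267). In all, 28 of the 119 relations passed by Pearson r and 18 by Spearman rho.

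**Figure D5:**
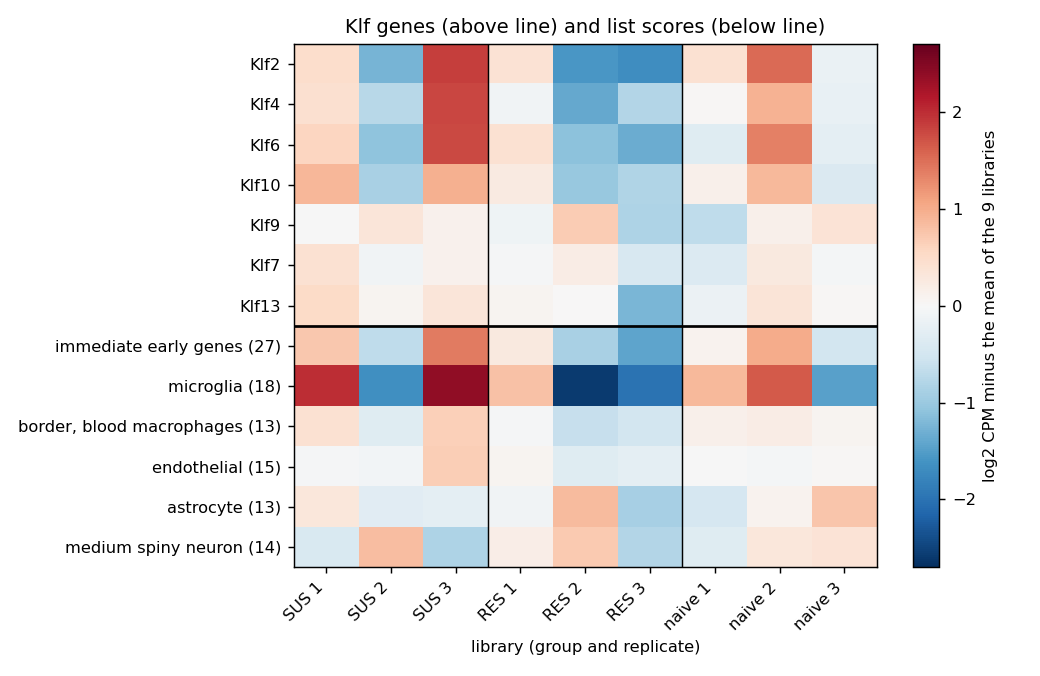
Log2 CPM minus the mean of the 9 libraries (colour scale) for the 7 Klf genes above the line and for the mean of 6 gene lists below it, with the number of genes in brackets and libraries ordered SUS, RES, naive. Klf2, Klf4, Klf6 and Klf10 shared their high (SUS replicates 1 and 3, naive replicate 2) and low (RES replicates 2 and 3, SUS replicate 2) libraries with the immediate early and microglial rows. The order among these libraries differed between rows.

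Of 12920 named genes that averaged at least 10 CPM, those closest to Klf2 over the 9 libraries were the MAP kinase phosphatase Dusp1 (r = 0.982), the chaperone Dnajb11 (0.980), the stress factor Atf3 (0.977), the ubiquitin ligase Rnf19b (0.976) and the AP-1 subunit Jun (0.976). Closest to Klf4 were Taf4b (0.988), the macrophage mannose receptor Mrc1 (0.987), Rhoh (0.983), Nfkb2 (0.983) and the TGF-beta coreceptor Eng (0.981). Closest to Klf6 were Herpud1 (0.986), an endoplasmic reticulum stress protein, the kinase Map2k3 (0.983), Rps14 (0.983), Vim (0.983) and Drap1 (0.979). Klf10 was closest to the cytokine signalling inhibitor Socs3 (0.993), Rgs10 (0.993) and Ctsc (0.992). For Klf9 the closest were Mrs2, Lyst and Etnk1 (0.990, 0.983 and 0.980), for Klf13 Dpysl2, Tcp1 and Taok1 (0.988, 0.983 and 0.983), and for Klf7 Zfp942, Tmem106b and Wwp1 (0.964, 0.959 and 0.956). Many genes had a high r, with 458 genes at 0.9 or more with Klf4 and 775 with Klf10. How far having only 9 points accounts for these numbers was not tested.

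Other members of the Klf and Sp families, which share the zinc finger domain, are given by counts and means. None of 10 other Klf and 8 tested Sp genes was called in any of the 4 comparisons. Between SUS and RES, 6 of the 10 Klf genes had positive and 4 negative fold changes (median 0.11, against 0.01 over all genes tested and 0.96 over the 7 genes above), and 6 of 8 Sp genes had positive ones (median 0.12). Klf3, a CtBP-binding repressor and the most counted of the other Klf genes, averaged 75.0 ± 25.4 CPM in SUS and 49.0 ± 7.07 CPM in RES (SD, n = 3 each). Klf15, a glucocorticoid-induced metabolic factor, averaged 18.4 ± 1.84 CPM in SUS and 24.5 ± 15.1 CPM in RES, with its highest value, 41.7 CPM, in RES replicate 2 as for Klf9. Klf16 averaged 14.99 ± 7.45 CPM in SUS and 14.9 ± 4.96 CPM in RES, and Klf12 23.3 ± 4.89 CPM in SUS and 20.1 ± 6.41 CPM in RES. Klf5 (11.9 ± 2.74 CPM in SUS and 14.2 ± 2.65 CPM in RES), Klf8 (13.1 ± 6.24 CPM in SUS and 11.4 ± 0.766 CPM in RES) and Klf11 (12.1 ± 1.93 CPM in SUS and 10.3 ± 2.06 CPM in RES) lay near background. The Sp factors Sp1 (61.1 ± 15.8 CPM in SUS and 45.0 ± 6.97 CPM in RES) and Sp3 (35.4 ± 12.4 CPM in SUS and 25.9 ± 9.05 CPM in RES) averaged just over 3 times background, and Sp4 (23.7 ± 5.64 CPM in SUS and 20.0 ± 9.13 CPM in RES), Sp2 (17.8 ± 2.74 CPM in SUS and 16.1 ± 2.38 CPM in RES) and Sp9 (13.5 ± 5.03 CPM in SUS and 13.97 ± 2.72 CPM in RES) below it.

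Partners and pathway genes were taken as lists. Between SUS and RES, the 13 corepressors, coactivators and ubiquitin ligases of KLF proteins had 12 positive fold changes with a median of 0.29, and the 11 genes of the ERK5 and MEF2 pathway had 10 with a median of 0.31. Known KLF2 or KLF4 targets of vessels and leukocytes had 7 of 10 positive with a median of 0.07, while the 27 immediate early genes had 24 positive with a median of 1.56. In RES against naive the same lists had medians of -0.23, -0.17, -0.13 and -0.75, and in SUS against naive 0.18, 0.14, 0.04 and 0.60. No gene of these lists was called by edgeR in any of the 4 comparisons.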

How the data were processed

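Counts per Ensembl gene for 9 libraries were used as deposited, whole numbers without scaling. STAR 2.5.2b, HTSeq, FastQC, DESeq2, DESeq and the build GRCm38 appear in the submitters' processing notes, without order or settings. Symbols, positions and exonic lengths came from GENCODE mouse release M21, which matched 52489 of 52636 IDs.

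After filterByExpr and TMM scaling, edgeR's quasi-likelihood test (edgeR 4.0.16, R 4.3.3) was run in 1 model of 3 groups, or of 2 groups for cocaine against naive, with Benjamini-Hochberg adjustment over all genes at 0.05. Each standard error is the fold change divided by the root of its F. CPM are scaled by TMM. For correlations the prior count added before log2 was 2, and list scores are means over tested genes. The tests were tried on simulated counts. DESeq2 1.42.0, DESeq2 size factors, no filter, nuclear genes only, a replicate term and leaving out each library were alternatives.

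The members and gene lists were chosen with earlier results of these data known. Named genes are the 7 members, other Klf and Sp genes averaging at least 10 CPM, the closest genes by r (5 for Klf2, Klf4 and Klf6, 3 for the others, without predicted genes), and Chat, Cx3cr1, Cldn5 and Fos. Tmem119 was added after its values were seen. The immediate early and glucocorticoid lists and 2 technical measures were added to the correlations in the same way. The technical measures, the share of counts on mitochondrial genes and the density of olfactory receptor counts, gave no relation past adjustment. The mitochondrial share still had r of 0.530 to 0.762 with Klf2, Klf4, Klf6 and Klf10 (exact permutation adjusted p between 0.0761 and 0.249). Olfactory density had r of 0.109 to 0.297 with these genes and -0.748 with Klf9 (exact permutation adjusted p = 0.0731 for Klf9). The part of these measures in the Klf values was not tested.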

Additional observations from a re-analysis of the deposited data

Results flagged for a closer look

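SUS replicate 3 stood far above the other 5 cocaine libraries for Klf2 (37.5 CPM), Klf4 (108.5 CPM) and Klf6 (107.1 CPM). Its gap to the next library took 0.679, 0.691 and 0.641 of the range of the 6 libraries. These 3 genes were selected on their spread between the same libraries, so the gaps restate that choice and are a description, with no test. Chance alone flags about 1 group in 20 only where values are normally distributed, which was not checked for these unlogged CPM. In all 7 genes were examined, and the 3 genes vary together. The same library had the highest Cx3cr1 (699.9 CPM) and Fos (229 CPM), and their part in it was not tested.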

How the results depend on the processing

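No gene was called in any of the 4 comparisons under the 5 alternative settings or with 1 library left out. The replicate block also gave 0 calls. Same-numbered libraries of different groups had correlated deviations of -0.17 to 0.172, so the replicate numbers were not taken to pair the libraries. With the replicate block the log2 fold change of Klf9 in RES against naive turned to -0.017 and that of Klf2 in SUS against naive to -0.022. The other settings that kept all libraries turned no member's direction. With 1 library left out, log2 fold changes in RES against naive ran from -0.19 to 0.14 (Klf7) and -0.43 to 0.34 (Klf9), turning for Klf7 without naive 2 or RES 3 and Klf9 without naive 1 or RES 2. In SUS against naive they ran from -0.86 to 0.73 (Klf2), -0.38 to 0.95 (Klf4), -0.49 to 1.15 (Klf6), -0.12 to 0.40 (Klf9) and -0.0091 to 0.66 (Klf10), turning for Klf2 without naive 3 or SUS 3, Klf4 without SUS 3, Klf6 without SUS 3, Klf9 without naive 1 and Klf10 without naive 3 or SUS 3. They ran in SUS against RES from -0.19 to 0.57 (Klf9), turning without RES 3. In cocaine against naive they ran from -1.11 to 0.19 (Klf2), -0.71 to 0.38 (Klf4), -0.72 to 0.64 (Klf6), -0.069 to 0.25 (Klf7), -0.17 to 0.34 (Klf9), -0.40 to 0.26 (Klf10) and -0.15 to 0.13 (Klf13), turning for Klf2 without naive 2, Klf4 without naive 2 or RES 1 or RES 2 or RES 3 or SUS 2, Klf6 without naive 2 or RES 2 or RES 3 or SUS 2, Klf7 without naive 1 or SUS 1, Klf9 without naive 1 or RES 2, Klf10 without naive 2 or RES 2 or RES 3 or SUS 2 and Klf13 without naive 2 or RES 3 (group and replicate number). The ratio of highest to lowest CPM with 1 library left out ran from 5.13 to 9.35 for Klf4, 6.55 to 8.86 for Klf6 and 1.61 to 3.39 for Klf13. On total counts without TMM it was 1.43 for Klf7 and 1.93 for Klf13. Of the 119 relations, 28 passed adjustment, 17 without TMM, 0 on deviations from group means, for which the 216 orders allow no p below 0.00463, and 17 without the 2 farthest libraries. The relation of Klf6 with mural markers (r = 0.790) turned to -0.149 without TMM. Causes were not tested. Klf2 had as few as 15 counts in a library, so counting error is largest there.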
